A study of Mus musculus with 3 samples.

Results

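Chromatin remodelling complexes were represented by 31 mouse genes, chosen by name as subunits of the SWI/SNF, CHD, ISWI and INO80 classes, out of 55536 annotated genes of which 22028 were protein-coding. The set held 17 SWI/SNF genes, 6 CHD genes, 5 ISWI genes and 3 INO80 genes, and all 31 were found in the gene tables. No measured value entered the rule of choice, but earlier results of these data were known when it was made. Total RNA had been sequenced, after depletion of ribosomal RNA, from the chromatin fraction of bone marrow-derived macrophages, primary cells of C57BL/6J mice. The cells had received 100 ng/ml of Lipid A, the membrane anchor of lipopolysaccharide and the ligand of TLR4, over 12 h, had then been kept 12 h without it, and had lastly been given 100 ng/ml once more, 20 min before harvest. There was 1 such group of 3 libraries, called biological replicates 1, 2 and 3 in the labels but sharing a donor entry, so the spread between them may in part be technical. No untreated or singly treated cells were analysed here, so every value below is a level in cells that had met Lipid A before and none is an effect of Lipid A. Sex and age are given as not collected.

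Remodellers use ATP to slide, evict or exchange nucleosomes. Each complex is built around 1 ATPase of the SNF2 type, and its other subunits hold the complex together or guide it to modified histones and to transcription factors. SWI/SNF complexes open chromatin and, in macrophages, are known to be needed for induction of many late lipopolysaccharide-responsive genes. ISWI complexes space nucleosomes, CHD enzymes act in elongation and in the repressive NuRD complex, and the INO80 class exchanges the histone variant H2A.Z. The chromatin fraction holds much nascent RNA, including transcripts that polymerase has not finished or that are not yet fully spliced.

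The libraries held 13953780, 24222661 and 16571228 expected counts (estimated read counts, which need not be whole) in replicates 1, 2 and 3, and were made from 1 µg, 250 ng and 500 ng of RNA, so that replicate and input amount cannot be told apart. All 8 macrophage markers had 1 TPM or more in every library, with means between 33.9 and 334 TPM. TPM is a level scaled for effective length within a library. Of 27 markers of T and NK cells, B cells, neutrophils, erythroid cells, mast cells and basophils, stroma and endothelium, and dendritic cells, all had means below 1 TPM except Pecam1 at 1.62 TPM and Zbtb46 at 1.41 TPM. A lower level in bulk RNA can come from fewer cells or from less RNA per cell, and these cannot be told apart.

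Nearly the whole set was transcribed. Of the 31 genes, 30 had 1 TPM or more in every library, or 96.8%, against 45.2% of all protein-coding genes. The median level over the set was 5.16 on the log2(TPM + 1) scale, against 0.72 over all protein-coding genes. Medians of the classes were 6.20 for CHD, 5.83 for INO80, 5.03 for ISWI and 4.85 for SWI/SNF genes. Taken library by library, the class medians had SDs of 0.09 for CHD, 0.29 for INO80, 0.17 for ISWI and 0.09 for SWI/SNF (n = 3). The exception was Smarca1, which encodes an ISWI ATPase and was listed at 0 counts in all 3 libraries.

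**Figure D1:**
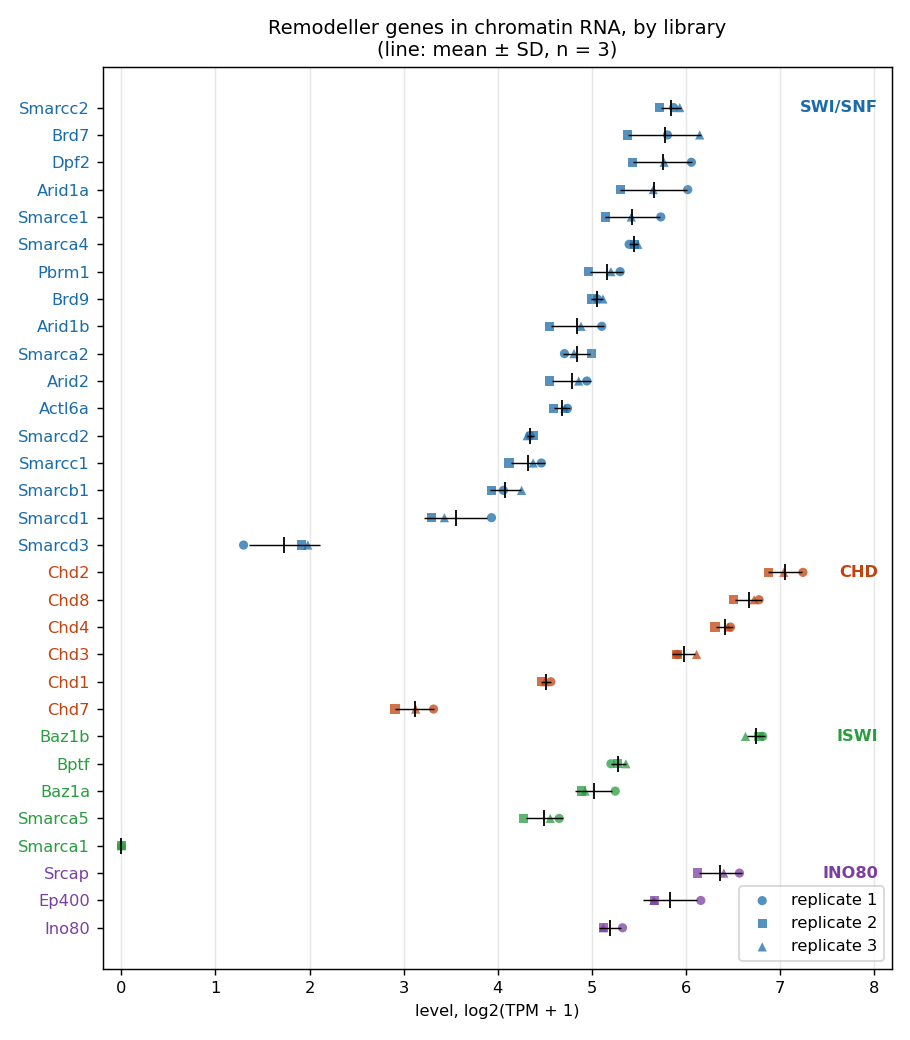
Level of each of the 31 genes on the log2(TPM + 1) scale, with 1 symbol per library and the mean ± SD as a line (n = 3), grouped by class and ordered by mean. Chd2, Baz1b and Chd8 lie furthest right, Smarcd3 lies alone near the left of the SWI/SNF genes, and Smarca1 is at 0 in every library.

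In order of mean level, Chd2 came first at 133 ± 17.4 TPM, followed by Baz1b at 106 ± 6.88, Chd8 at 102 ± 10.1, Chd4 at 84.4 ± 5.15 and Srcap at 82.2 ± 12.8 TPM (SD, n = 3 for these and all later means). The lowest detected genes were Smarcb1 at 16.1 ± 1.92, Smarcd1 at 11.0 ± 2.93, Chd7 at 7.75 ± 1.24 and Smarcd3 at 2.40 ± 0.816 TPM. A difference was called beyond its spread when it had the same sign in all 3 libraries and its mean was over 2 SD of the 3 differences. No p-value is given, since an exact two-sided sign-flip test over 3 libraries cannot go below 0.25. By this rule 23 of the 30 neighbouring pairs in the order did not differ. The 7 steps that did were Chd8 over Chd4, Dpf2 over Arid1a, Arid1a over Smarce1, Smarca4 over Bptf, Actl6a over Chd1, Chd7 over Smarcd3 and Smarcd3 over Smarca1. Genes were ordered by these same means, so the sign of each mean difference was fixed. In a second quantification, described below, the means of Arid1a and Smarce1, and of Smarca4 and Bptf, had the opposite order. Over transcripts annotated as protein-coding only, those of Chd8 and Chd4, Dpf2 and Arid1a, and Actl6a and Chd1 did. The other steps kept their order in each case.

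The engines of SWI/SNF are Smarca4 (BRG1, chr9:21616169-21704230, mm10) and Smarca2 (BRM, chr19:26605050-26778322), of which a complex holds 1. Smarca4 had 41.2, 42.8 and 44.0 TPM in replicates 1, 2 and 3, and Smarca2 had 25.2, 30.9 and 27.1 TPM. Smarca4 was above Smarca2 in every library and their ranges did not overlap. The mean difference was 0.61 ± 0.13 on the log2(TPM + 1) scale (n = 3), beyond its spread. The order of this pair depended on the quantification. In a second set of transcript tables deposited for the same libraries, summed by gene, Smarca4 had 39.8 ± 2.00 TPM and Smarca2 58.6 ± 2.21 TPM, a difference of -0.55 ± 0.02. Counted over transcripts annotated as protein-coding only, a choice made after seeing the data, Smarca4 had 42.7 ± 1.39 TPM and Smarca2 8.69 ± 0.910 TPM in the first tables, a difference of 2.18 ± 0.17.

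The annotation of the 2 genes differs in kind. All 4 annotated Smarca4 transcripts are protein-coding, so the coding share of its TPM was 100% by construction. Smarca2 has 46 annotated transcripts, of which 27 are protein-coding. Its leading transcript, Smarca2-202, is 5913 nt long with 33 exons and is annotated as a target of nonsense-mediated decay (NMD), the pathway that removes messages with an early stop codon. Smarca2-202 had 5.57, 7.05 and 6.98 TPM, or 23.6% ± 1.96 of the gene's TPM, and 39.3% of the gene's expected counts. The coding transcript Smarca2-209, of 5862 nt, followed with 4.51, 4.89 and 3.33 TPM.

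Levels of the core scaffold subunits were spread over the SWI/SNF range. Smarcc1 (BAF155) and Smarcc2 (BAF170) form the dimer on which the complex assembles. Smarcc1 had 21.1, 16.4 and 19.8 TPM and Smarcc2 had 57.6, 51.9 and 60.3 TPM. Every Smarcc2 value exceeded every Smarcc1 value, and Smarcc2 had the highest mean of the 17 SWI/SNF genes at 56.6 ± 4.29 TPM, not beyond its spread from Brd7. The difference, Smarcc1 minus Smarcc2, was -1.52 ± 0.10 log2 units. Smarcc1, with 601, 1024 and 757 counts, overlaps Dhx30 on the opposite strand, which had 866, 1938 and 1115 counts. Whether counting used strand is not given in the sources used here, so reads of such overlapping genes cannot be told apart. Smarcb1 (SNF5), a core subunit that contacts the nucleosome, had 15.7, 14.3 and 18.1 TPM. Retained-intron transcripts are annotated as holding intron sequence, which need not be a whole intron. They took 54.7% ± 5.76 of Smarcb1's TPM and 83.5% of its expected counts. Coding transcripts took 45.3% ± 5.76 of its TPM and 16.5% of its counts. Smarce1 (BAF57), a subunit with a DNA-binding HMG domain, had 52.3, 34.4 and 41.9 TPM, highest in replicate 1 and lowest in replicate 2. Its single coding transcript took 15.3% ± 1.28 of this, and noncoding processed transcripts took 84.7% ± 1.28. By expected counts, these shares were 38.3% and 61.7%.

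Smarcd1, Smarcd2 and Smarcd3 encode the alternative BAF60 subunits, which link the complex to transcription factors. Smarcd2, known to be required for granulocyte development in mice, led with 19.3, 19.9 and 18.9 TPM. Smarcd1 had 14.3, 8.82 and 9.81 TPM and Smarcd3, the form known from heart and skeletal muscle, 1.46, 2.78 and 2.95 TPM. The ranges of the 3 genes did not overlap. Smarcd1 minus Smarcd2 was -0.79 ± 0.35 log2 units, which passed the 2 SD rule narrowly. It failed it at -0.64 without replicate 2 and at -0.75 without replicate 3. Smarcd2 minus Smarcd3 was 2.61 ± 0.38. Smarcd3 rested on 38, 109 and 63 counts, and 99.6% ± 0.621 of its TPM lay on retained-intron transcripts. Its coding transcripts were listed at 0 in replicates 1 and 3 and had 0.0300 TPM in replicate 2. Smarcd3 overlaps Chpf2 on the opposite strand, which had 894, 1859 and 1112 counts.

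The subunits that set the type of SWI/SNF complex were all present. Arid1a and Arid1b, which define the canonical BAF complex, had 64.0, 38.6 and 49.4 TPM and 33.5, 22.4 and 28.6 TPM in replicates 1, 2 and 3. Arid2, which defines the polybromo-associated PBAF complex, had 29.9, 22.4 and 28.1 TPM. Arid1a stood above both in every library, by 0.81 ± 0.09 log2 units over Arid1b and by 0.87 ± 0.17 over Arid2. In TPM each of the 3 peaked in replicate 1, as did 51.4% of all protein-coding genes, and was lowest in replicate 2, as were 70.7%. In log2 CPM, which is scaled for library size but not for length, Arid1b and Arid2 were highest in replicate 2 instead. On that scale 39.6% of all protein-coding genes were highest in replicate 2. Brd7, a PBAF bromodomain protein, had 55.0, 40.6 and 70.0 TPM, and Brd9, of the non-canonical complex, had 32.4, 30.9 and 33.8 TPM. Brd7 minus Brd9 was 0.72 ± 0.32 and failed the rule at 0.71 without replicate 1.

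Pbrm1, the multi-bromodomain reader of PBAF, had 38.5, 30.3 and 35.9 TPM, and Dpf2, a PHD-finger reader of canonical BAF, had 65.8, 42.3 and 53.6 TPM. Dpf2 was higher within each library, and Pbrm1 minus Dpf2 was -0.60 ± 0.15 log2 units. Pbrm1 overlaps Gnl3 and Smim4 on the opposite strand, which had 450, 788 and 571 counts and 151, 205 and 177 counts, beside 1759, 3087 and 2003 for Pbrm1. Over coding transcripts only the order was the opposite, with 27.9 ± 3.41 TPM for Pbrm1 and 6.90 ± 1.73 TPM for Dpf2, a difference of 1.89 ± 0.15. Coding transcripts made up 80.0% ± 0.328 of Pbrm1's TPM and 12.8% ± 0.505 of Dpf2's. Retained-intron transcripts held 71.4% ± 6.98 of Dpf2's TPM. Actl6a (BAF53a), the actin-related subunit of dividing cells, had 25.8, 23.1 and 25.3 TPM, while its neuronal counterpart Actl6b was listed at 0 counts in each library. A gene at 0 could hold up to 3 counts by counting error alone, which for Actl6b is 0.310, 0.144 and 0.264 TPM. The second tables, however, gave Actl6a 35.7 ± 5.40 TPM and Actl6b 0.611 ± 0.0641 TPM, above these limits, so no fold between them is given.

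**Figure D2:**
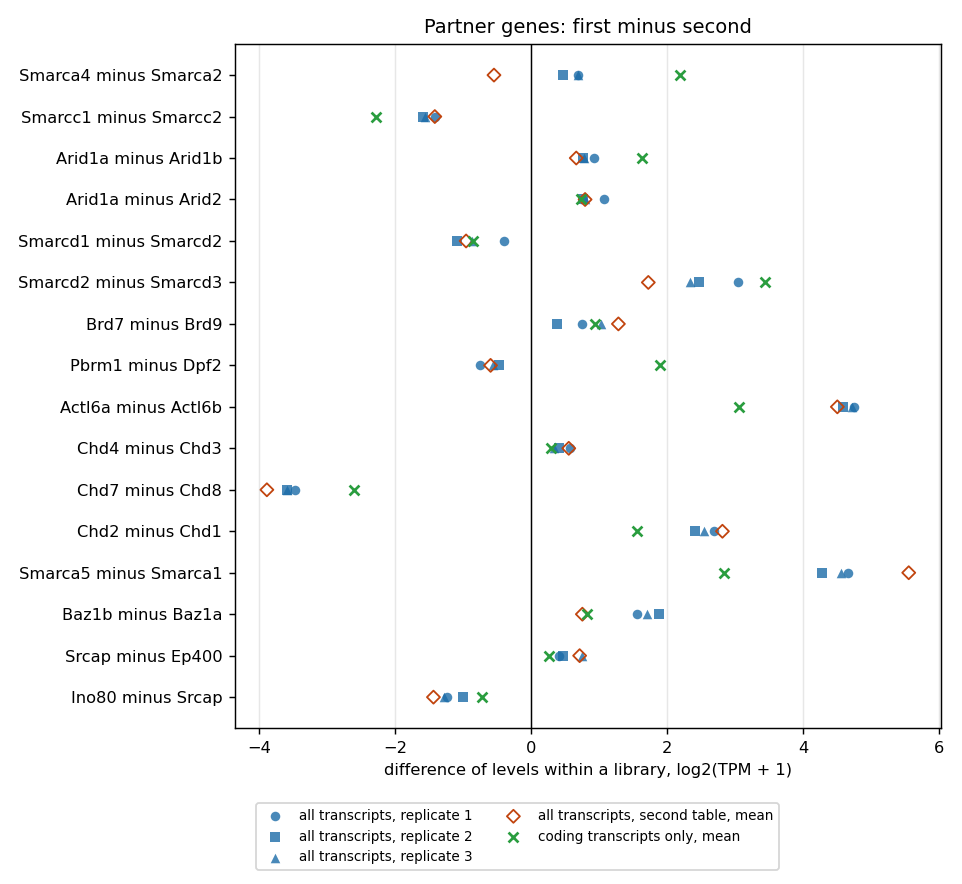
Difference in level between partner genes, first minus second, on the log2(TPM + 1) scale, for each library in the gene table (blue), the mean in the second tables (open diamonds) and the mean over coding transcripts only (crosses). Smarca4 minus Smarca2 falls on the other side of 0 in the second tables (-0.55), and Pbrm1 minus Dpf2 does so over coding transcripts (1.89). For Actl6b and Smarca1, listed at 0, the size of the difference depends on the pseudocount of 1. The same holds over coding transcripts for Smarcd3, whose coding transcripts were at or near 0.

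CHD genes included the highest of the set. Chd2 (chr7:73426638-73541830, mm10) and Chd1 encode related enzymes that act with elongating polymerase. Chd2 had 151, 117 and 131 TPM and Chd1 22.7, 21.1 and 21.7 TPM, with no overlap and a difference of 2.54 ± 0.14 log2 units. Over coding transcripts it was 1.55 ± 0.12. Chd2 is overlapped on its own strand by 1810026B05Rik, a long noncoding RNA gene known in mice to restrain Chd2, named here after its values were seen. 1810026B05Rik had 3453, 4226 and 3743 counts and 68.8 ± 18.6 TPM, against 5586, 10406 and 6437 counts for Chd2. Other loci on the same strand also overlap Chd2. They are C130083A15Rik with 312, 528 and 416 counts, Gm44553 with 254, 322 and 318, and Gm44552 with 147, 334 and 195. Where the annotated exons of such genes coincide, the division of reads between them is uncertain.

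Chd4 and Chd3, the alternative ATPases of NuRD, had 88.1, 78.5 and 86.6 TPM and 59.2, 59.1 and 68.4 TPM. Chd4 minus Chd3 was 0.44 ± 0.12 log2 units, beyond its spread, and 0.29 ± 0.18 over coding transcripts, which was not. Chd8, a repressor of beta-catenin targets, had 109, 90.2 and 105 TPM. Chd7, the enzyme mutated in CHARGE syndrome in humans, had 8.98, 6.51 and 7.75 TPM. Chd7 minus Chd8 was -3.56 ± 0.08 log2 units, the largest gap in total TPM among the pairs in which both genes were detected. Over coding transcripts it was -2.61 ± 0.01. Smarcd2 minus Smarcd3 was then 3.44 ± 0.17, but the coding transcripts of Smarcd3 were at or near 0. The size of that gap depends on the pseudocount of 1, so the 2 gaps are not ranked. Chd7's 523, 940 and 611 counts were well above the limit of 3.

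Among ISWI genes, Smarca5 (SNF2H, chr8:80698507-80739497, mm10) and Smarca1 (SNF2L, chrX:47809368-47892974) encode the alternative ATPases. Smarca5 had 24.2, 18.4 and 22.6 TPM, from 616, 1118 and 646 counts. Smarca1 was listed at 0 in every library in both sets of tables, and 3 counts would be 0.109, 0.0498 and 0.0913 TPM. In total TPM of the gene table, Smarca5 was therefore at least 221-fold higher than Smarca1 in replicate 1, where the limit was weakest. Over coding transcripts only, Smarca5 had 6.81 TPM in replicate 1, for which the fold would be smaller. The 250 bases before each RefSeq start are printed because this was the only pair of ATPases with 1 gene at 0. They are from the RefSeq promoter table, build GRCm38.p6, run 5′ to 3′ on the gene's strand, and have each CG dinucleotide in capitals.
Smarca5 promoter, chr8:80739460-80739709, minus strand: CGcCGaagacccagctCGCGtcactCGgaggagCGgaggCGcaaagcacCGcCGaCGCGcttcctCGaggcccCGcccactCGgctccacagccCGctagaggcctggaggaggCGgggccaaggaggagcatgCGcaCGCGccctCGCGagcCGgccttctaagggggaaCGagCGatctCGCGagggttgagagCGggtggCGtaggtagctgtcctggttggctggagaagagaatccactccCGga
Smarca1 promoter, chrX:47892614-47892863, minus strand: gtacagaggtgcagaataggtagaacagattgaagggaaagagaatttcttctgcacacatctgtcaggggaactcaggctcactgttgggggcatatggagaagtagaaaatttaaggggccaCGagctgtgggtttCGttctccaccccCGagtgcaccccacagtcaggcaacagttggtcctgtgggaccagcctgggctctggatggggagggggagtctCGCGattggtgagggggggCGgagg
The Smarca5 stretch holds 29 CG dinucleotides and the Smarca1 stretch 6. The start sites differ between annotations. The RefSeq start of Smarca1 lies 361 bases downstream of the GENCODE M21 start, so its whole stretch lies inside the GENCODE gene, whereas for Smarca5 the offset is 38 bases, so the CG counts describe these stretches and not matched promoters.

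Promoter windows of 300 bases, from 250 before to 50 after the start, were given for 24 of the 31 genes, 27 windows in all. They held a median of 32.0 CG dinucleotides, against 7.0 over the 32851 windows of all genes, coding or not. Their median share of G and C bases was 68.0%, against 52.7% over all windows. The range over the set was 4 (Smarcd2) to 48 (Smarcc2). The hexamer TATAAA, on either strand, was in 1 of the 27 windows, that of Smarcd2, or 3.70%, against 13.6% of all windows. That window, chr11:106267583-106267882, lies wholly inside the GENCODE M21 gene, chr11:106263179-106272972, whose start is elsewhere. Its CG count and hexamer therefore do not describe the promoter at the GENCODE start. Other windows, among them those of Smarcc1 and Smarcd3, also lie inside the GENCODE gene. The hexamer CCGGAA, a core of sites bound by ETS factors, was in 8 windows on either strand, or 29.6%, against 14.9% of all. Arid1a and Brd9 had windows with this hexamer, with both Brd9 windows overlapping each other. The other 5 genes were Chd8, Pbrm1, Smarca2, Smarcc1 and Smarcd1. A match is a string of letters and not a site shown to be bound. The part of base composition in these hexamer shares was not tested.

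The partner subunits of ISWI differed widely. Baz1b (WSTF, chr5:135187264-135246129, mm10), which pairs with Smarca5 and phosphorylates H2A.X, had 112, 109 and 98.5 TPM. Baz1a (ACF1), the spacing partner of Smarca5, had 37.1, 28.7 and 29.5 TPM. Baz1b minus Baz1a was 1.72 ± 0.16 log2 units, 0.75 ± 0.29 in the second tables, and 0.26 ± 0.35 in the second tables over coding transcripts, where the sign held in 2 of 3 libraries. Bptf, the histone reader of the NURF complex, had 35.9, 37.8 and 40.2 TPM.

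The INO80 class ATPases were all well represented. Srcap, which deposits H2A.Z, had 94.2, 68.7 and 83.8 TPM, Ep400, the ATPase of the TIP60 complex, 70.6, 49.8 and 49.7 TPM, and Ino80 39.2, 33.9 and 33.9 TPM. In TPM all 3 were highest in replicate 1, as were 51.4% of all protein-coding genes. In log2 CPM all 3 were highest in replicate 2, as were 39.6%. Srcap minus Ep400 was 0.54 ± 0.18 and Ino80 minus Srcap -1.17 ± 0.15 log2 units. Srcap is overlapped on the same strand by Gm42715, annotated as protein-coding, with 2275, 4696 and 2481 counts beside 4925, 8609 and 5687 for Srcap.

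In all, 16 partner pairs were compared and all 16 passed the rule in the gene table. The number was 15 when any 1 library was left out. Pairs were chosen with earlier results of these data known, so the count carries no weight as evidence.

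Much of the set's TPM lay on transcripts not annotated as protein-coding, but less of its expected counts did, as given below. Transcripts annotated as protein-coding include some that are incomplete at an end. For the 30 detected genes, the median share of TPM on protein-coding transcripts was 49.9%, against 52.2% over 9271 protein-coding genes with 1 TPM in every library and more than 1 transcript. The share was under 50% in 15 of 30 genes, against 47.3% of all genes. Retained-intron transcripts were annotated for 26 of the genes and held a median of 42.3%, against 47.1% over 6330 genes. They held over 50% in 11 of the 26, or 42.3%, against 45.5%. Both shares were near those of all genes.

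**Figure D3:**
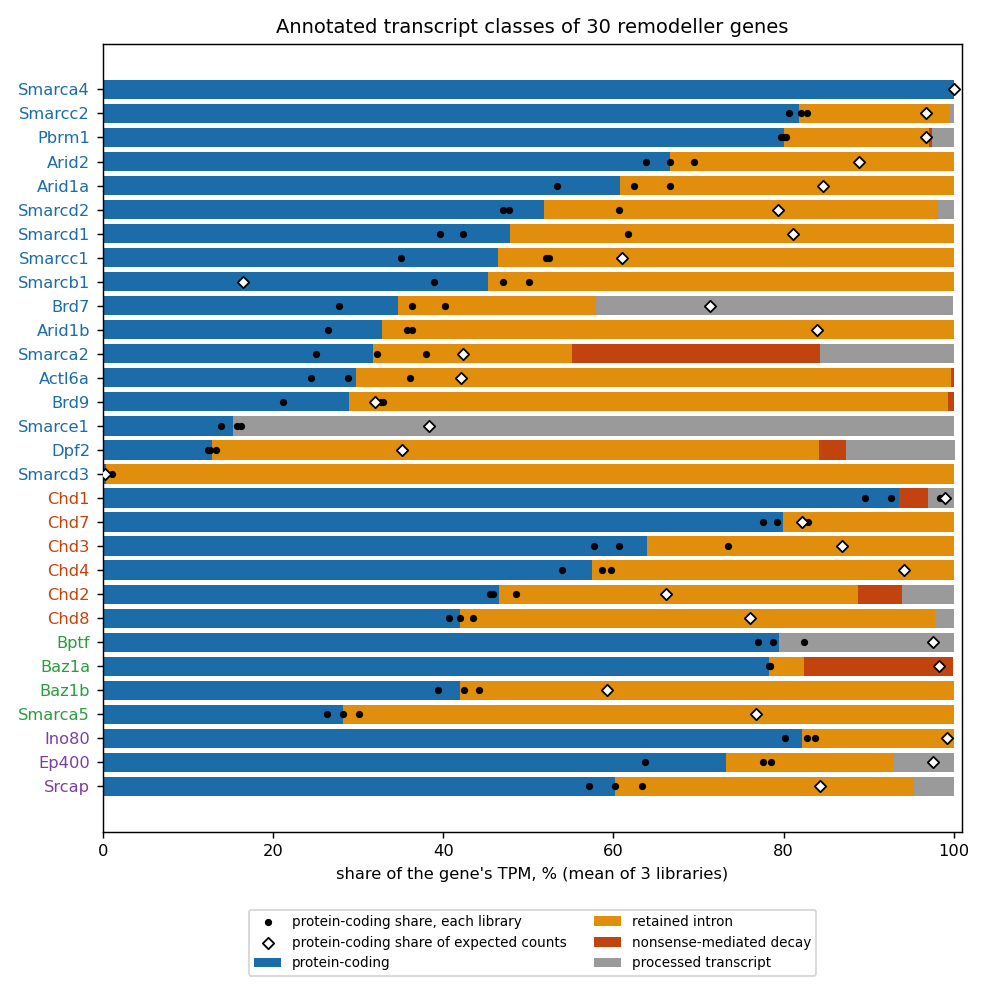
Share of each gene's TPM on 4 annotated transcript classes (bars, mean of 3 libraries), with the protein-coding share in each library (dots) and the protein-coding share of expected counts (diamonds), for the 30 detected genes ordered by class. Smarca4 is wholly coding, Smarcd3 almost wholly retained-intron and Smarce1 mostly processed transcript, and for Arid1b and Smarca5 the diamond lies far right of the bar's coding part.

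The shares depended on the unit. By expected counts, the median coding share was 81.6% and the retained-intron share 18.4%, against 74.4% and 30.3% over all genes. Short transcripts weigh more in TPM than in counts. Arid1b-205, a retained-intron transcript of 1083 nt, held 54.8% ± 3.96 of Arid1b's TPM and 13.8% of its counts. Smarca5-201, the coding transcript of 6113 nt, held 28.2% ± 1.84 of Smarca5's TPM and 76.7% of its counts. The reverse was seen for Smarcb1, where the retained-intron transcript Smarcb1-205 of 7441 nt held 36.2% ± 4.82 of TPM and 67.3% of counts.

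A protein-coding transcript led in 21 of the 30 genes, or 70.0%, against 60.4% of all genes, and in 14 of the 30 in the second tables. The share of all genes in the second tables was 46.3%. Among the 21 leaders, Chd3-207 of 430 nt and Pbrm1-215 of 3137 nt are annotated as incomplete at an end. Chd3-207 held 1.47% of Chd3's expected counts. A retained-intron transcript led in 7 of the 30 genes, against 30.9% of all genes, and in 10 of the 30 in the second tables, against 34.1%. The 7 genes were Smarcc1, Smarcd1, Smarcd3, Arid1b, Actl6a, Dpf2 and Chd2. In 6 of the 7, all but Actl6a, the leading transcript runs across the start of an intron that coding transcripts of the same gene remove. These borders, 1 for each transcript and both for Chd2, are printed as positions at which spliced and unspliced RNA of the gene part. Each is 10 exon and 20 intron bases of the GENCODE M21 transcript, 5′ to 3′, with coordinates in mm10, and capitals mark the last 3 exon bases and the first 6 intron bases.
Arid1b-205, chr17:5127015-5127044, plus strand: gagtctaCCAGTAAGAcattactatgctga
Chd2-208, chr7:73541226-73541255, minus strand: catggatCAGGTAAGTccatgataatcagt
Chd2-208, chr7:73540752-73540781, minus strand: atgcatcGAGGTATGAgctatcaactttct
Dpf2-207, chr19:5905369-5905398, minus strand: agcacggAAGGTCTGTtattgccatggcta
Smarcc1-208, chr9:110213634-110213663, plus strand: gaaagagGCTGTAAGTaagaggaatttgca
Smarcd1-207, chr15:99711206-99711235, plus strand: ggacctcAAGGTAGGAgcctgggaaaggcc
Smarcd3-203, chr5:24595703-24595732, minus strand: cttggatGATGTATGTcctggtccaagcct
All 8 introns of coding transcripts whose start these transcripts cross begin with GT. The transcripts hold 2 of the introns whole, the Chd2 intron of 341 nt, whose border is the first Chd2 line and which does not lie between coding exons, and the Smarcd3 intron of 237 nt, which does. The second Chd2 line is the start of an intron of 21063 nt between coding exons, inside which Chd2-208 ends. The other transcripts also end inside the intron, which is 943 nt long in Smarcd1, 842 nt in Dpf2, 8248 nt in Smarcc1 and 115803 nt in Arid1b. Chd2-208 is a single exon of 3741 nt and had 1648, 2405 and 1797 counts and 39.7, 26.4 and 36.1 TPM. Dpf2-207 had 113, 160 and 112 counts, and Smarcd3-203 had 4, 23 and 21.

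The second tables gave higher levels for 24 of the 30 genes, against 81.0% of all protein-coding genes at 1 TPM in every library, and at least 1.5-fold higher levels for 8, against 37.9%. The median ratio, second over first, was 1.25 over the 30 genes and 1.33 over all. The ratio was 3.06 for Smarcd3, 2.13 for Smarca5, 2.11 for Smarca2, 1.73 for Baz1a, 1.62 for Chd2, 1.59 for Chd8, 1.56 for Pbrm1 and 1.53 for Dpf2. In these genes the transcript that gained most was between 370 and 968 nt long. Chd8-210, a retained-intron transcript of 428 nt, had 6.22, 8.29 and 12.2 TPM in the first tables and 71.8, 61.3 and 62.1 TPM in the second, which was 93.3% of Chd8's gain. Smarca5-204, of 503 nt, had 3.12, 1.42 and 2.11 TPM and then 22.5, 15.6 and 18.0 TPM. The first tables gave Smarca5-204 only 10, 10 and 8 counts. Across the 31 genes, which share libraries, the rank order of mean levels in the 2 sets had a Spearman rho of 0.93, and that of total and coding-only levels 0.84.

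**Figure D4:**
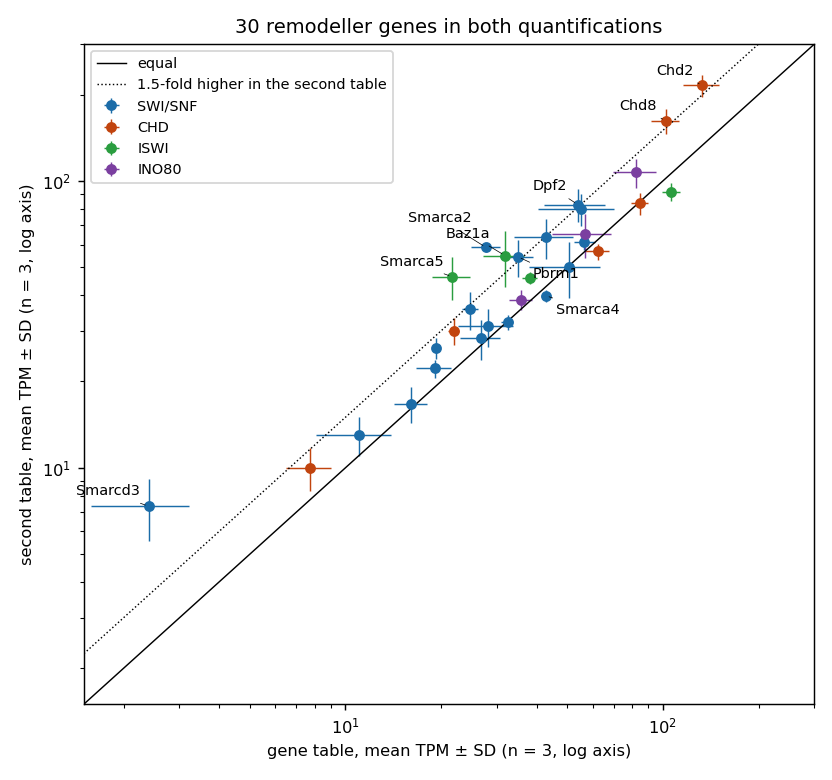
Mean TPM ± SD (n = 3) of the 30 detected genes in the gene table and in the second tables, both axes logarithmic, with a solid line where they are equal and a dotted line at 1.5-fold. Named points other than Smarca4 lie on or above the dotted line, Smarcd3 and Smarca5 furthest from the solid one, while Smarca4 lies just under the solid line at 39.8 TPM.

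Between libraries the genes varied little in log2 CPM. CPM are counts scaled to the total on genes, adjusted by a TMM factor for each library, and not to length. The median SD of log2 CPM over 30 genes was 0.13, with a range of 0.03 to 0.38. It was 0.19 over 9540 protein-coding genes of at least 50 mean counts. Within the set's own range of mean counts, 70 to 8168, the median over all genes was 0.18. The gap depended on the libraries used. It was 0.13 against 0.14 without replicate 1, 0.07 against 0.14 without replicate 2, and 0.16 against 0.19 without replicate 3. On log2(TPM + 1) the median SD was 0.18 over the set, against 0.23 over all genes. On log2 CPM, the highest library was at least 1.5-fold over the lowest for 2 genes, or 6.67%, against 24.1% of all genes.

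Those genes were Smarca2, with log2 CPM of 6.19, 6.82 and 6.36 and a ratio of 1.55, and Smarcd3, with 1.49, 2.23 and 1.99 and a ratio of 1.67. For Smarca2 the SD of 0.33 was far above the 0.035 that counting error alone would give, and for Smarcd3 0.38 compared with 0.172. At the other end of this scale, Arid1a had 7.68, 7.63 and 7.67 and Srcap 8.46, 8.50 and 8.45. In TPM these 2 genes were not steady, with 64.0, 38.6 and 49.4 for Arid1a and 94.2, 68.7 and 83.8 for Srcap. Smarca2 had 25.2, 30.9 and 27.1 TPM. In all, 21 of 30 genes had an SD of more than 2 times the counting SD, against 62.3% of all genes.

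**Figure D5:**
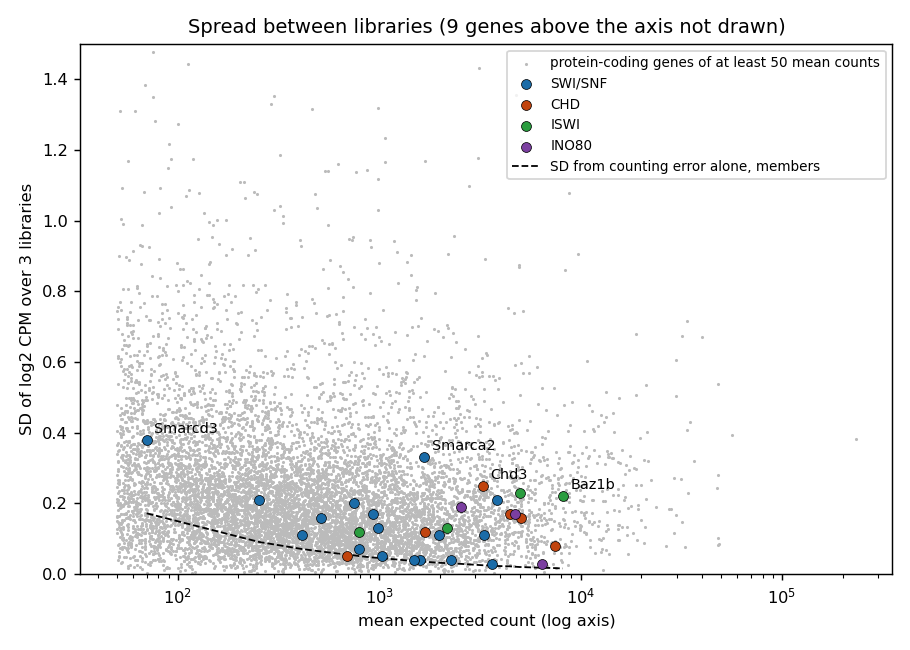
SD of log2 CPM over the 3 libraries against mean expected count (log axis) for the 30 detected genes, coloured by class, over 9531 protein-coding genes in grey, members included, with 9 genes above the axis not drawn. The dashed line joins the SDs that counting error alone gives for the 30 genes, and Smarca2 and Smarcd3 stand highest at 0.33 and 0.38.

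The library in which a gene was highest depended on the scale. On log2 CPM, replicate 2 was the highest library for 24 of 30 genes, or 80.0%, against 39.6% of all genes. Replicates 1 and 3 were each highest for 3 genes, against 32.1% and 28.3% of all genes. Replicate 1 was the lowest library for 17 genes, against 41.2% of all genes, replicate 2 for 4, against 33.9%, and replicate 3 for 9, against 24.9%. On log2(TPM + 1) the picture was the opposite. Replicate 2 was highest for 2 genes, against 9.43% of all genes, replicate 1 for 20, against 51.4%, and replicate 3 for 8, against 39.1%. Replicate 2 was the lowest library for 22 genes, or 73.3%, against 70.7%, and replicates 1 and 3 for 4 each, against 17.4% and 11.8%. The set has long transcripts, with a median longest transcript of 6434 nt, and among 1245 genes whose longest transcript was at least that long, 47.8% were highest in replicate 2 on log2 CPM. Replicate 2 also had the most counts and the least starting RNA, and their part in the result was not tested.

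Other genes of the same complexes were mostly present as well. Their lists were not picked by level, but were made with earlier results of these data known. All 28 other subunits of the INO80, SRCAP and EP400 complexes had 1 TPM or more in every library, against 45.2% of all protein-coding genes. Morf4l1, a chromodomain protein of TIP60, had 109 ± 22.6 TPM, Trrap, its large scaffold, 95.6 ± 13.7 and Brd8, a bromodomain subunit, 62.5 ± 8.89, down to Ino80c at 2.10 ± 0.374. Of 15 other CHD and NuRD genes 14 did, led by Chd9 at 118 ± 21 TPM, the deacetylase gene Hdac1 at 57.9 ± 21.3 and Chd6 at 44.2 ± 6.04. The exception, Chd5, known mainly from neurons and testis, had 0.660, 0.590 and 0.910 TPM.

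Of 6 other ISWI subunits 5 reached 1 TPM in every library, with Baz2b at 132 ± 19.3, Baz2a, of the nucleolar remodelling complex, at 62.3 ± 5.64 and Rsf1 at 30.2 ± 1.5 TPM. Cecr2 had 1.15, 0.930 and 0.850 TPM, but 8.34 ± 2.43 TPM in the second tables. SWI/SNF had the most genes under this level, with 8 of 14 other subunits passing it, or 57.1%, against 45.2% of all protein-coding genes. Bcl7a missed it at 0.820 TPM in replicate 2 and had 3.32 ± 0.794 TPM in the second tables. The others that missed it, Dpf1, Dpf3, Bcl11a, Actl6b and Bcl11b, had means below 1 TPM there too. Actb, whose actin is a subunit and also part of the cytoskeleton, had 437 ± 134 TPM, Ss18 26.6 ± 5.26 and Phf10, of PBAF, 18.4 ± 3.16. Actl6b and Bcl11b, the lymphoid and neuronal factor, were listed at 0. All 8 other SNF2-type ATPases passed, with Atrx at 284 ± 15.0, above every gene of the set, Smarcad1 at 41.0 ± 8.81 and Hltf at 27.7 ± 2.51 TPM. Hells was the lowest at 6.31 ± 0.802 TPM. In the second tables Hells had 24.0 ± 3.53 TPM and was not the lowest, with Ercc6 at 13.6 ± 0.441 TPM.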

How the data were processed

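Total RNA of the chromatin fraction was sequenced in 3 libraries of 1 group. Per the notes deposited with each library and the file headers, the genome was mm10 and the annotation M21. Column names match RSEM for the gene table and first transcript table, and kallisto for the second transcript table. Program names, versions and the aligner are not stated in the sources used here. The authors' tables hold expected counts, estimates that need not be whole, and 21 of the 31 genes had counts within 0.005 of a whole number in every library. From their column names, the authors' TPM values were taken as scaled for effective length within a library. The deposited FPKM values were taken as scaled for length and library size. The authors' percent values per transcript, its share of the gene's TPM, were recomputed here from TPM by class.

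All 31 members matched GENCODE M21 by identifier. Entries that name no gene took 2.46, 0.484 and 0.327% of counts and stayed out of CPM. Levels are TPM, with a pseudocount of 1 on the log2 scale. Expected counts, rounded to whole numbers, gave log2 CPM with edgeR 4.0.16 TMM factors and a prior count of 2, for genes of at least 50 mean counts, in R 4.3.3. The spread calculation was tested on simulated data. DESeq2 1.42.0 size factors were an alternative. Other work used Python 3.11.15, pandas 2.3.3, numpy 2.4.6 and matplotlib 3.10.9. A gene at 0 could hold up to 3 counts, or 0.220, 0.124 and 0.182 CPM in replicates 1, 2 and 3. Floors cover counting error only.

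With 1 group there was no comparison between groups and no test. Members, lists and pairs were chosen with earlier results of these data known. Genes named are all members and both genes of each pair. Of each companion list they are the 3 highest, the lowest and those under 1 TPM in a library, with exceptions stated. The second table lacked 86 genes, entered at 0. Promoters came from RefSeq. Alternatives were another table, unit, pseudocount, filter or normalization, and leaving out each library.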

Additional observations from a re-analysis of the deposited data

Results flagged for a closer look

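A pair of loci with symbols built on remodeller gene names carried counts outside the main measurement, above the limit of 3 that a count of 0 allows. Smarca5-ps, a transcribed processed pseudogene on chromosome 4, had 13.4, 21.1 and 12.1 expected counts in replicates 1, 2 and 3, the lowest being 12.1, which was 2.18, 1.88 and 1.88% of Smarca5's counts. Ino80dos, a long noncoding RNA gene, had 152, 275 and 180 expected counts, the lowest being 152, and 11.4, 9.46 and 13.5 TPM. Its symbol marks it as the opposite-strand RNA of Ino80d, a companion subunit with 25.2 ± 5.38 TPM, which it overlaps on the opposite strand of chromosome 1. Smarce1-ps1 had 3.01, 0 and 0 counts and did not pass the limit in every library.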

How the results depend on the processing

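The second tables moved the median level of the 31 genes to 46.3 TPM, against 34.9 TPM, and the median log2(TPM + 1) to 5.19 for SWI/SNF, against 4.85, and to 5.55 for ISWI, against 5.03. Over coding transcripts only, an alternative chosen after seeing the data, the median level was 18.6 TPM. Leaving out 1 library gave median levels of 33.1 to 36.6 TPM, class medians of 4.85 to 5.0 for SWI/SNF, 6.15 to 6.24 for CHD, 4.91 to 5.09 for ISWI and 5.66 to 5.91 for INO80, and kept 30 genes at 1 TPM and 15 of 16 pairs beyond their spread. Coding shares then ran from 47.2 to 53.2%, retained-intron shares from 40.9 to 43.6% and the median SD from 0.07 to 0.16. By expected counts, also chosen after seeing the data, these shares were 81.6% and 18.4%. Genes highest in replicates 1, 2 and 3 numbered 3, 24 and 3 on log2 CPM but 20, 2 and 8 on log2(TPM + 1), where the background was 51.4, 9.43 and 39.1% of all genes. Smarca4 minus Smarca2 turned to -0.55 in the second tables, and Pbrm1 minus Dpf2, -0.60 in the gene table, to 1.25 on log2 CPM, to 1.89 over coding transcripts and to 1.97 over coding transcripts of the second tables. The cause of these turns was not tested. No paired analysis was possible because there is only 1 group, so replicate numbers link no samples across groups (partner genes were compared within each library). Levels of genes that share reads with an overlapping gene, and of transcripts with few counts, are the least certain, and 3 libraries with 1 donor entry limit every SD.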
